A study of Mus musculus with 4 samples.

Results

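The simple epithelium keratins are the 6 genes *Krt7*, *Krt8*, *Krt18*, *Krt19*, *Krt20* and *Krt23*, taken by name out of 30214 gene names on a mouse whole genome array. They were read by 7 probes out of 39429, 1 probe for each gene except *Krt8*, which had 2. RNA came from the colon of male B6.129 mice of backcross generation 3, aged 42 weeks, that carried *Pla2g3*+/+ or *Pla2g3*-/-. *Pla2g3* encodes a secreted phospholipase A2. The mice received vehicle (saline) or azoxymethane (AOM), which causes tumors of the colon in rodents, at 10 mg/kg once a week over 6 weeks, and were killed 28 weeks after the last injection. The arrays are called WT vehicle, KO vehicle, WT AOM and KO AOM here, where KO stands for the label *Pla2g3*-/- and WT for *Pla2g3*+/+. Each of the 4 groups was 1 array hybridized with RNA pooled from 3 to 5 mice, so no comparison has a replicate check or a p-value, and the spread between mice is not in the data. The legends of the study give a single number of mice per pool, within that range. The deposited description calls the tissue of both AOM groups colorectal cancer, whereas the study's text describes the whole descending colon. Which part of *Pla2g3* was deleted is not given in the sources used here.

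Keratins are the intermediate filament proteins of epithelial cells. A filament is built from pairs of a type I (acidic) and a type II (basic to neutral) keratin. In single-layered epithelia such as that of the colon, the main pair is *Krt8* (type II) with *Krt18* (type I). *Krt19* (type I) can take the place of *Krt18* and is found along the crypt, *Krt20* (type I) marks mature surface cells of the intestine, and *Krt7* (type II) is a keratin of ducts and other simple epithelia. *Krt23* is a less studied type I keratin. In the mouse the type II genes and *Krt18* are clustered on chromosome 15, and the other type I genes on chromosome 11.

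On mm9, the build of the array files, the probes of *Krt7*, *Krt8* and *Krt18* lie on chromosome 15 and those of *Krt19*, *Krt20* and *Krt23* on chromosome 11. The *Krt7* probe covers chr15:101253718-101253777 on the plus strand, the *Krt18* probe chr15:101862341-101862400 on the plus strand, and the *Krt19* probe chr11:100002392-100002451 on the minus strand. The *Krt8* probes start 1689 bases apart on the minus strand. The upstream one covers chr15:101828827-101828886, and the other, nearer the 3′ end, covers chr15:101827138-101827197 and carries a polyadenylation signal. *Krt20* at chr11:99289776-99289835 and *Krt23* at chr11:99339393-99339452, both on the minus strand, are neighbors with 0 genes between them in the RefSeq gene table. Exon and intron boundaries on mm9 were not used here. To show what was hybridized, sequences are printed 5′ to 3′ for *Krt7*, for the upstream *Krt8* probe, which passed the limit used below where the other *Krt8* probe did not, and for *Krt19*, which followed *Krt8*.
*Krt7*: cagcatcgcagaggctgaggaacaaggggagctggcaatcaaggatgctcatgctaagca
*Krt8*, upstream probe: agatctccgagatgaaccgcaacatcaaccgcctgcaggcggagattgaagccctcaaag
*Krt19*: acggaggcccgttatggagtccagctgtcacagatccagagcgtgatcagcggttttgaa

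All 7 probes were well above background on all 4 arrays and none was saturated. A level here is a probe's signal relative to the 75th percentile of all probes on that array, and it can be compared between arrays for the same probe only. That percentile was 646 intensity units on the WT vehicle array, 649.8 on KO vehicle, 1309 on WT AOM and 1169 on KO AOM. Spots printed several times on 1 array had a median SD between 0.058 and 0.066 on the log2 scale and a 95th percentile of that SD between 0.197 and 0.234. These values cover technical error within an array only. A difference of over 2-fold (1 on the log2 scale) was called. Where a gene of a comparison list was well above background on 1 array only, its ratio is a lower bound.

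The signal of *Pla2g3* went against the genotype labels. Its brightest probe read 0.531 on WT vehicle, 0.656 on KO vehicle, 0.232 on WT AOM and 1.40 on KO AOM, so that the arrays labeled *Pla2g3*-/- were 1.23-fold and 6.01-fold higher. The second probe gave 1.06-fold and 6.66-fold, and the third at least 2.31-fold and 2.76-fold, in the same direction. Whether the probes lie outside the deleted part was not tested. Every direction between genotypes below therefore refers to the arrays as labeled, and the pools are written as labeled-KO.

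**Figure D1:**
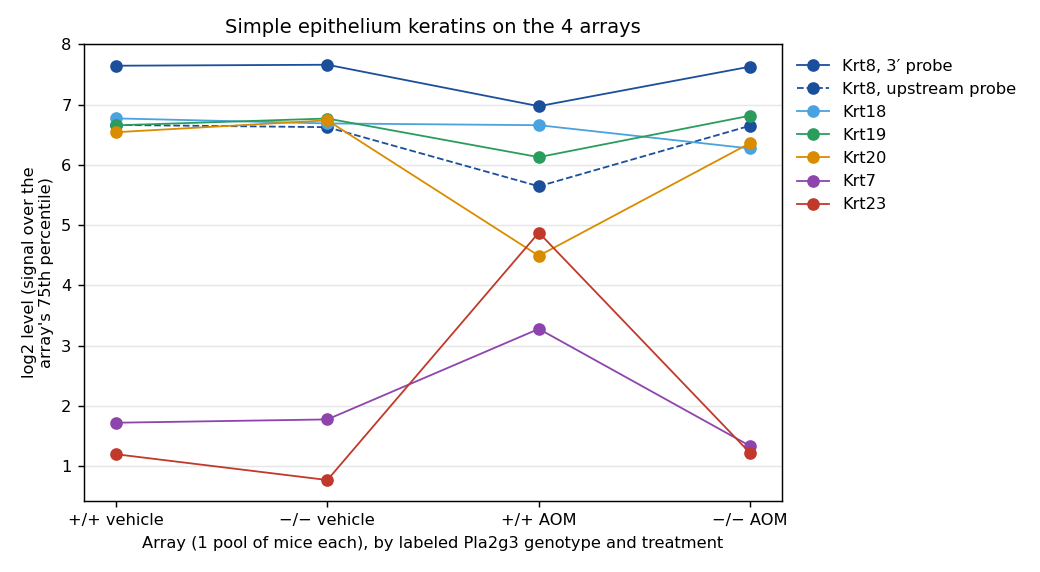
Log2 level (signal over the array's 75th percentile) of the 7 keratin probes on the 4 arrays, 1 point per probe and array, with lines joining the points of a probe and no error bars because each group is 1 array. Levels can be compared along a line only. On the array of WT mice after AOM, *Krt23* (29.4) and *Krt7* (9.69) were at their highest. *Krt20* (22.5), *Krt19* (70.0) and both *Krt8* probes (126 and 50.02) were at their lowest there. That order does not hold for *Krt19* and the 3′ probe of *Krt8* without scaling or with quantile normalization. Nor does it hold for the upstream *Krt8* probe without scaling, where KO vehicle was the lowest.

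Among type II keratins, *Krt7* separated the AOM-treated pools. Its level was 3.29 for WT with vehicle, 3.42 for the labeled-KO array with vehicle, 9.69 for WT after AOM and 2.51 for the labeled-KO array after AOM. The first 2 differed by 0.06 on the log2 scale, within the technical spread, whereas WT after AOM stood above the other 3 arrays. After AOM, *Krt7* was 2.95-fold higher than with vehicle in WT and had a log2 ratio of -0.44 in the labeled-KO pool. It was 3.85-fold lower in the labeled-KO pool than in WT after AOM.

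*Krt8*, the type II partner of the main colonic pair, had a narrower range. The probe nearer the 3′ end had levels of 200.4 and 203 with vehicle (WT and labeled-KO), and of 126 and 198 after AOM. The upstream probe had levels of 101 and 98.8 with vehicle, and of 50.02 and 101 after AOM. On both probes the 3 arrays other than WT after AOM differed by steps of 0.03 or less on the log2 scale, and WT after AOM was the lowest. Its log2 ratio of AOM to vehicle in WT was -0.67 on the 3′ probe and -1.02 on the upstream probe, and in the labeled-KO pool -0.03 and 0.03. The ratio of labeled-KO to WT after AOM was 0.66 and 1.01 on the log2 scale. The upstream probe was thus just past the 2-fold limit in both comparisons and the brighter 3′ probe, which represents the gene in the counts below, was not.

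*Krt18*, the type I partner of *Krt8*, did not have the same order of arrays. Its level was 109 and 103 with vehicle (WT and labeled-KO), and 101 and 77.3 after AOM. The first 3 differed by steps of 0.08 and 0.03 on the log2 scale, within the technical spread, and the labeled-KO array after AOM was the lowest. No ratio of *Krt18* passed 2-fold. With this scaling the widest was -0.42 on the log2 scale, for AOM over vehicle in the labeled-KO pool. After AOM, the log2 ratio of labeled-KO to WT was -0.39 for *Krt18* and positive for *Krt8*, a gap of 1.04 with the 3′ probe of *Krt8* and of 1.39 with the upstream probe. With vehicle that gap was 0.10 and 0.05. For scale, pairs of probes for the same gene, over 3794 genes with both probes detected in the AOM comparison, differed by a median of 0.19 and by 0.88 at the 90th percentile. In AOM over vehicle, the gap between *Krt8* and *Krt18* was -0.56 and -0.91 in WT against a 90th percentile of 1.14 for such pairs, and 0.38 and 0.44 in the labeled-KO pool against 1.04. How far these probes also bind transcripts of processed pseudogenes, which both genes have, was not tested.

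*Krt19*, a type I keratin without a fixed partner, followed *Krt8*. Its level was 101 and 109 with vehicle (WT and labeled-KO), and 70.0 and 113 after AOM. WT after AOM was the lowest, and the other 3 arrays were within steps of 0.11 and 0.05 on the log2 scale. AOM over vehicle was -0.53 in WT and 0.05 in the labeled-KO pool, and labeled-KO over WT after AOM was 0.69, none of them past 2-fold.

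*Krt20*, the type I keratin of mature intestinal surface cells, had the largest drop. Its level was 93.2 and 107 with vehicle (WT and labeled-KO), and 22.5 and 82.3 after AOM. The array of WT after AOM lay well below the other 3, which differed by steps of 0.18 and 0.20 on the log2 scale. AOM over vehicle was -2.05 on the log2 scale (4.15-fold lower) in WT and -0.38 in the labeled-KO pool. After AOM, *Krt20* was 3.66-fold higher in the labeled-KO pool than in WT.

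*Krt23*, its neighbor on chromosome 11, moved the other way and by more. Its level was 2.29 and 1.70 with vehicle (WT and labeled-KO), and 29.4 and 2.32 after AOM. WT after AOM stood far above the other 3 arrays, and the labeled-KO array after AOM differed from WT with vehicle by 0.02 on the log2 scale. AOM over vehicle was 12.8-fold higher in WT and 0.45 on the log2 scale in the labeled-KO pool. After AOM, *Krt23* was 12.7-fold lower in the labeled-KO pool than in WT.

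The difference in AOM response between the pools, as the log2 ratio of AOM to vehicle in the labeled-KO pool minus that in WT, was -3.24 for *Krt23*, -2.001 for *Krt7*, 1.68 for *Krt20*, 0.64 and 1.04 for the 2 probes of *Krt8*, 0.58 for *Krt19* and -0.30 for *Krt18*. With 1 array per group this difference could not be tested.

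Because *Krt20* and *Krt23* are neighbors with opposite ratios, their promoters are printed from RefSeq (GRCm38.p6, minus strand, 250 bases before the gene start, 5′ to 3′), with motif matches in capitals.
*Krt20*, chr11:99438154-99438403: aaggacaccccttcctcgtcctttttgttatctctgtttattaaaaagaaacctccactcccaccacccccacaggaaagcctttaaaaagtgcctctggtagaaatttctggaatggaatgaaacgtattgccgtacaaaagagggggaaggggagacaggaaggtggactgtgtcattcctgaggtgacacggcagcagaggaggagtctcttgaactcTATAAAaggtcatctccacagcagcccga
*Krt23*, chr11:99493121-99493370: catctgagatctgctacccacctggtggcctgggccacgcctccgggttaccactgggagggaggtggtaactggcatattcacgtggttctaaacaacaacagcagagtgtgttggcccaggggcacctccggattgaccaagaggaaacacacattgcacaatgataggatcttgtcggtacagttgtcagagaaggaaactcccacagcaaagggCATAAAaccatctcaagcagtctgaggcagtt
The capitals mark a TATA box spelled as TATAAA in *Krt20*, 29 bases before the start, and CATAAA (the short form of a CDX site) in *Krt23*, 32 bases before it. Both strands were searched for these motifs. They were also searched for an AP-1 type motif with the letters TGANTCA, and for a motif of the TCF/LEF type, spelled CTTTGA. The TATA box and the CDX form differ in their first letter. Among 32851 promoters of the same length, 12.4% held the TATA box and 10.8% the CDX form. The AP-1 type was in 6.75% and the TCF/LEF type in 13.8%. The windows of *Krt7*, *Krt8* and *Krt18* held none of the 4. A match is a stretch of letters and not a measured site.

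With each gene represented by its brightest probe, 0 of 6 keratins passed 2-fold in either direction between the vehicle arrays. The background there was 2.20% higher and 1.52% lower of 20864 genes tested. After AOM, labeled-KO over WT was higher for 1 of 6 (*Krt20*) and lower for 2 of 6 (*Krt7* and *Krt23*), against 14.3% higher and 12.6% lower of 21671 genes. AOM over vehicle in WT was higher for 2 of 6 (*Krt7* and *Krt23*) and lower for 1 of 6 (*Krt20*), against 14.6% higher and 22.8% lower of 21959 genes. In the labeled-KO pool, 0 of 6 passed in either direction, against 10.0% higher and 16.4% lower of 21072 genes. The median log2 ratio of the 6 keratins was 0.04, 0.14, -0.32 and -0.20 in these 4 comparisons, and that of all genes -0.02, 0.02, -0.22 and -0.10. With 6 members, 1 gene is a large share, so these counts are not read against the background, and the comparisons share arrays.

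Without scaling between arrays, the median of all genes in AOM over vehicle moved from -0.22 to 0.80 in WT and from -0.10 to 0.71 in the labeled-KO pool. The ratios of *Krt7*, *Krt20* and *Krt23* in WT kept their direction and stayed past 2-fold under every scaling tried. Smaller ratios did not keep their direction. For AOM over vehicle in WT, the 3′ probe of *Krt8* was at -0.67 with the 75th percentile, 0.35 without scaling and 0.30 with quantile normalization. In the same comparison *Krt18* was at -0.11, 0.91 and 0.83, and *Krt19* at -0.53, 0.49 and 0.38. Whether *Krt8*, *Krt18* and *Krt19* were above or below vehicle in WT, and whether WT after AOM was the lowest array for *Krt8* and *Krt19*, therefore depends on the scaling. So does the order of arrays for *Krt18*. Without scaling and with quantile normalization, KO vehicle was its lowest array and WT after AOM its highest. In the labeled-KO pool, *Krt8*, *Krt18* and *Krt20* were also positive without scaling (0.82, 0.43 and 0.47) and with quantile normalization (0.63, 0.42 and 0.43), and *Krt7* was positive without scaling (0.40). The direction of labeled-KO over WT after AOM was the same for all 6 keratins under every normalization tried.

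A difference between keratins on the same arrays does not depend on a scaling factor, but quantile normalization changes it. The gap between *Krt8* and *Krt18* for labeled-KO over WT after AOM was 0.85 with the 3′ probe and 1.39 with the upstream probe under quantile normalization, and 0.81 and 1.34 after normexp. The 3′ probe was then below the 0.88 of the 90th percentile for pairs of probes and the upstream probe above it.

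The keratins were set beside 13 general epithelial genes, among them the claudins *Cldn3* and *Cldn7* of tight junctions and the galectin *Lgals4*. These genes did not share 1 ratio. For AOM over vehicle in WT they ran from -3.59 to 0.64 on the log2 scale, so their median is a reference point only. In bulk tissue, fewer epithelial cells and less of a transcript per cell cannot be told apart. The median log2 ratio of the 13 was 0.07 between the vehicle arrays, 0.69 for labeled-KO over WT after AOM, -0.54 for AOM over vehicle in WT and 0.09 in the labeled-KO pool. Past 2-fold were 0 of 13 between the vehicle arrays, 2 higher after AOM, 6 lower in WT, and 1 higher and 2 lower in the labeled-KO pool.

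*Krt19* lay within 0.04 of that median in all 4 comparisons and the 3′ probe of *Krt8* within 0.13, whereas the upstream probe of *Krt8* lay 0.48 below it for AOM over vehicle in WT and 0.31 above it for labeled-KO over WT after AOM. With quantile normalization, *Krt19* was 0.55 above the epithelial median for AOM over vehicle in WT and 0.46 above it in the labeled-KO pool, and the 3′ probe of *Krt8* 0.47 and 0.26 above. *Krt20* lay above 12 of the 13 epithelial genes for labeled-KO over WT after AOM (1.18 above the median) and above 2 of them for AOM over vehicle in WT (1.51 below the median). *Krt18* lay below all 13 for labeled-KO over WT after AOM, 1.08 below their median, where the lowest of the 13 was at 0.25. It lay above 11 of 13 for AOM over vehicle in WT. *Krt7* and *Krt23* lay outside the range of all 13 in both of these comparisons, 2.10 and 4.22 above the median for AOM over vehicle in WT. With quantile normalization *Krt18*, *Krt7* and *Krt23* also lay below all 13 for labeled-KO over WT after AOM, and *Krt7* and *Krt23* above all 13 for AOM over vehicle in WT. Between the vehicle arrays *Krt23*, at -0.43, lay below all 13 and the other keratins lay inside their range. In the labeled-KO pool, all 7 probes lay inside the range for AOM over vehicle.

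**Figure D2:**
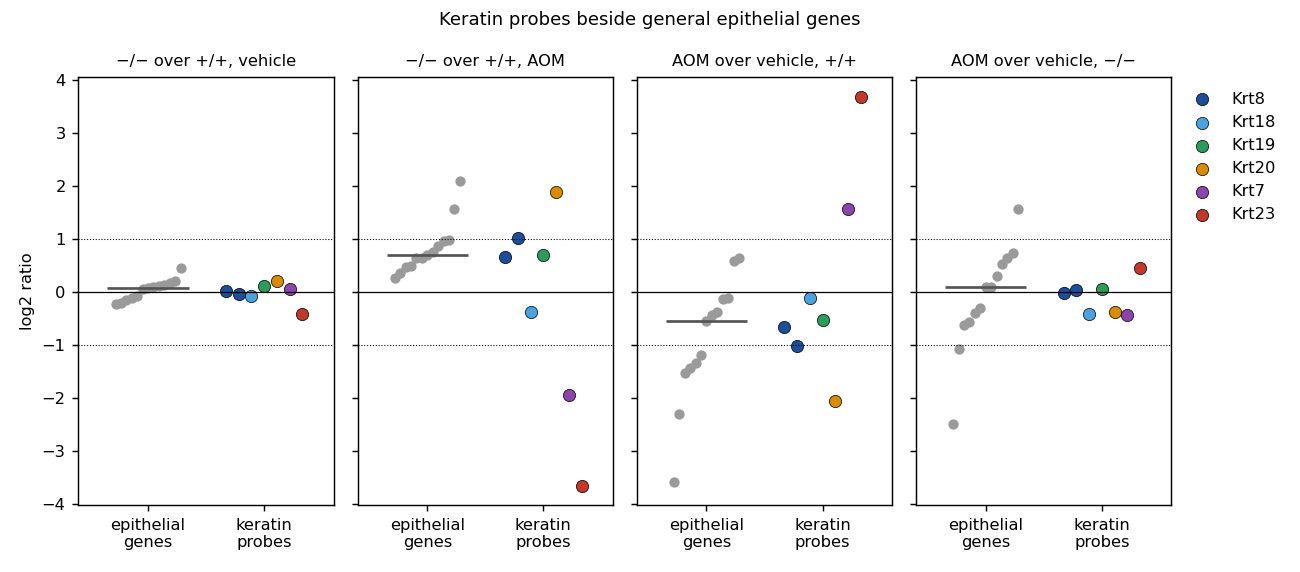
Log2 ratios in the 4 comparisons, with 13 general epithelial genes in gray (bar, their median) and the 7 keratin probes in color (*Krt8* has 2 points), as labeled +/+ or −/− for *Pla2g3*, with dotted lines at 2-fold and no error bars because each ratio is between 2 arrays. For −/− over +/+ after AOM, *Krt18*, *Krt7* and *Krt23* lie below all 13 epithelial genes, whereas *Krt8* and *Krt19* lie among them.

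The genes of proteins that anchor keratin filaments were highest in sum on the KO AOM array. Their summed levels were 34.0 and 32.6 with vehicle and 45.7 and 81.3 after AOM. Of 12 anchor genes, 0 passed 2-fold between the vehicle arrays (median log2 ratio -0.13). Labeled-KO over WT after AOM gave 5 higher and 0 lower (median 0.60), AOM over vehicle 2 higher and 0 lower in WT (0.35), and 8 higher and 0 lower in the labeled-KO pool (1.27). *Dsp* (desmoplakin, which ties filaments to desmosomes) had levels of 3.23 and 3.27 with vehicle and of 9.34 and 15.9 after AOM. *Plec* (plectin, a linker of filaments) had 7.90 and 7.96, then 12.7 and 26.5, whereas *Pkp3* (plakophilin 3, of desmosomes) had 7.83 and 6.96, then 5.18 and 5.30.

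Keratins of stratified epithelia, which line skin and the anal canal, were also measured. Of 18 such genes, 0 of the 14 with a value passed 2-fold between the vehicle arrays (median -0.19). After AOM, 3 of 16 were higher and 1 lower in labeled-KO over WT (0.37). AOM over vehicle gave 5 higher and 4 lower of 16 in WT (-0.31), and 7 higher and 2 lower of 15 in the labeled-KO pool (0.73). Their summed level was 4.20, 3.83, 11.2 and 24.9 on the 4 arrays (WT vehicle, KO vehicle, WT AOM and KO AOM). Most of the change in this sum came from 3 genes, which were chosen after their values were seen. *Krt5*, of basal cells, had levels of 0.0561 and 0.0515 with vehicle and of 0.0266 and 15.3 after AOM. *Krt15* had 0.0485 and 0.0396, then 5.46 and 3.17, and *Krt14*, the partner of *Krt5*, 0.112 and 0.0686, then 1.55 and 2.49. Without these 3 the sum was 3.98, 3.67, 4.14 and 3.95. *Krt17*, a keratin of hair follicles and stressed epithelium, had levels of 0.503 and 0.446 with vehicle and 1.72 and 0.905 after AOM. *Krt13*, of internal stratified epithelia, had 1.02 and 1.09, then 0.918 and 1.24, and *Krt10*, of the upper epidermis, 1.07 and 0.829, then 0.314 and 0.438. The part of stratified epithelium in the keratin values was not tested.

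Genes of differentiated colonocytes were, like *Krt20*, lowest in sum on the WT AOM array, with summed levels of 835 and 787 with vehicle and of 92.8 and 437 after AOM. Of 11 colonocyte genes, 0 passed 2-fold between the vehicle arrays (median -0.07). Labeled-KO over WT after AOM gave 9 higher and 1 lower (median 2.07), AOM over vehicle 0 higher and 10 lower in WT (-3.22), and 1 higher and 5 lower in the labeled-KO pool (-0.88). *Guca2a* (guanylin, a peptide of mature colonocytes) had levels of 294 and 279 with vehicle and of 4.84 and 106 after AOM. *Car1* (carbonic anhydrase 1) had 141 and 178, then 15.2 and 63.6, and *Lypd8*, which keeps flagellated bacteria off the surface, 178 and 121, then 45.1 and 124.

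The 8 goblet cell genes summed to 1581 and 1562 with vehicle and to 110 and 509.7 after AOM. None passed 2-fold between the vehicle arrays (0 of 8, median -0.06), and after AOM 7 were higher and 0 lower in labeled-KO over WT (2.06). AOM over vehicle gave 0 higher and 8 lower in WT (-3.70), and 0 higher and 6 lower in the labeled-KO pool (-1.69). *Zg16*, a lectin of mucus granules, had levels of 444 and 404 with vehicle and of 20.0 and 168 after AOM. The log2 ratio of *Krt20* in WT, -2.05, lay nearer to 0 than the medians of both lists.

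Genes of Wnt signaling and of crypt base cells were, like *Krt7* and *Krt23*, highest in sum on the WT AOM array, with summed levels of 8.03 and 7.70 with vehicle and of 74.9 and 9.16 after AOM. Of 12, 0 passed 2-fold between the vehicle arrays (median -0.02). Labeled-KO over WT after AOM gave 0 higher and 10 lower (-2.78), and AOM over vehicle 11 higher and 0 lower in WT (3.06). In the labeled-KO pool it gave 1 higher and 3 lower (-0.11). *Rnf43*, a Wnt target that limits Wnt receptors, had levels of 1.74 and 1.76 with vehicle and of 13.7 and 3.17 after AOM. *Ascl2*, a transcription factor of crypt stem cells, had 1.66 and 1.48, then 7.66 and 1.62, and *Notum*, a secreted Wnt inhibitor, 2.13 and 1.94, then 10.3 and 1.70.

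Of 9 proliferation genes with a value, 0 passed 2-fold between the vehicle arrays (median 0.51), 2 were lower and 0 higher in labeled-KO over WT after AOM (-0.75), 4 were higher and 0 lower for AOM over vehicle in WT (0.89), and 1 was lower and 0 higher in the labeled-KO pool (-0.41). *Mki67*, a marker of dividing cells, had levels of 2.89 and 4.33 with vehicle and of 7.91 and 8.63 after AOM. It was the one gene of the 9 with a positive log2 ratio for labeled-KO over WT after AOM (0.13). *Pcna*, a clamp of DNA replication, had 10.8 and 10.0, then 13.9 and 7.16.

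**Figure D3:**
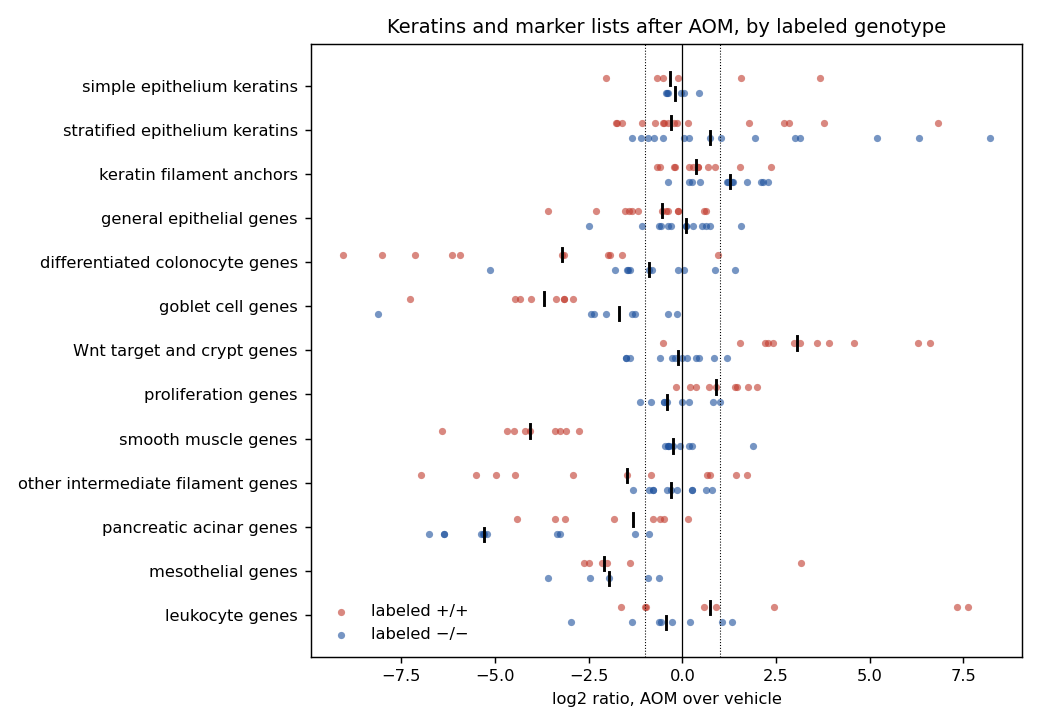
Log2 ratios of AOM to vehicle for the simple epithelium keratins and 12 comparison lists, 1 point per gene (its brightest probe, lower bounds included), in red for WT and blue for the labeled-KO pool, with black bars at the medians and dotted lines at 2-fold. In WT the keratins spread from -2.05 to 3.68, with a colonocyte median of -3.22 and a Wnt and crypt median of 3.06, whereas in the labeled-KO pool they lie between -0.44 and 0.45.

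Genes of smooth muscle also differed between the arrays, mainly on the array of WT after AOM. The summed level of 9 smooth muscle genes was 508 and 534 with vehicle, 31.5 for WT after AOM and 486 for the labeled-KO array after AOM. All 9 were lower for AOM over vehicle in WT (median -4.07), all 9 higher in labeled-KO over WT after AOM (3.73), 0 passed 2-fold between the vehicle arrays (0.09), and 1 was higher and 0 lower in the labeled-KO pool (-0.26). *Tagln*, an actin-binding protein of smooth muscle, had levels of 194 and 202 with vehicle and of 11.6 and 158 after AOM. The summed level of the 13 epithelial genes was 536 and 535 with vehicle and 226 and 419 after AOM, and that of the 6 keratins 509 and 527, then 358 and 476. The sums of the epithelial genes and of the muscle genes were thus both lowest on the array of WT after AOM. Of the 13 epithelial genes, 6 were past 2-fold lower for AOM over vehicle in WT and 0 higher. *Cdh1* (12.9 against 8.32 and 7.11 with vehicle) and *Grhl2* (1.59 against 1.06 and 1.22) were above both vehicle arrays there. Both were named for this after their values were seen. Without scaling, the median log2 ratio of the 13 in that comparison was 0.48. The part of tissue makeup in the keratin ratios was not tested.

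Other intermediate filament genes, of mesenchyme, muscle, neurons and glia and of the nuclear lamina that all cells have, gave 0 of 11 past 2-fold between the vehicle arrays (median -0.01), 5 higher and 2 lower in labeled-KO over WT after AOM (0.63), 2 higher and 6 lower for AOM over vehicle in WT (-1.49), and 0 higher and 1 lower in the labeled-KO pool (-0.31). *Vim* (vimentin, of mesenchymal cells) had levels of 6.31 and 6.79 with vehicle and of 17.03 and 8.18 after AOM, the same array being highest as for *Krt7* and *Krt23*. *Synm* (synemin, of muscle) had 5.13 and 4.99, then 0.163 and 8.67, and *Lmna*, a lamin of the nucleus, 8.49 and 10.9, then 13.3 and 16.7.

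Some simple keratins are also made by mesothelium and by the pancreas, so both were counted. Of 11 acinar genes, 9 were higher and 0 lower in labeled-KO over WT with vehicle (median 4.67), where all 6 keratins stayed within 2-fold, and 0 were higher and 10 lower for AOM over vehicle in the labeled-KO pool (-5.29). In WT 0 of 8 with a value were higher and 4 lower (-1.31), and after AOM 3 of 6 were higher and 0 lower between genotypes (1.12). Their summed level was 32.3 and 33.3 with vehicle and 2.46 and 6.73 after AOM, most of it from *Cela1* (16.5 and 13.2, then 1.57 and 5.51) and *Clps* (15.3 and 10.2, then 0.713 and 0.993). The other 9 summed to 0.389 and 9.92 with vehicle and to 0.174 and 0.229 after AOM. The acinar enzyme *Ctrb1* had levels of 0.0865 and 2.21 with vehicle and of 0.0618 and 0.0557 after AOM. Of 6 mesothelial genes, 1 was higher (*Msln*) and 5 lower for AOM over vehicle in WT (median -2.09), 0 higher and 1 lower between the vehicle arrays (-0.27), 1 higher and 1 lower of 4 between genotypes after AOM (0.35, and -1.26 without a filter on dim probes), and 0 higher and 3 lower of 5 in the labeled-KO pool (-1.96). Their summed level was 0.687 and 0.541 with vehicle and 3.38 and 0.103 after AOM. *Msln* (mesothelin), which tumors can also make, had levels of 0.371 and 0.284 with vehicle and of 3.32 and 0.0236 after AOM.

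Of 8 leukocyte genes, 0 passed 2-fold between the vehicle arrays (median -0.21), 1 was higher and 6 lower in labeled-KO over WT after AOM (-1.75), 3 were higher and 1 lower for AOM over vehicle in WT (0.74), and 2 higher and 2 lower in the labeled-KO pool (-0.43). Their summed level was 27.0 and 24.0 with vehicle and 63.7 and 18.5 after AOM. The high sum for WT after AOM came from *S100a8* (10.04) and *S100a9* (35.7), of neutrophils, named after their values were seen. Without these 2 the sum was 26.7 and 23.8 with vehicle and 17.96 and 17.996 after AOM. *Itgam*, an integrin of myeloid cells, had levels of 18.7 and 15.4, then 5.95 and 12.6. It was the largest part of that sum with vehicle, so the sum does not give the direction of the other genes. *Csf1r* had levels of 5.55 and 5.94 with vehicle and of 8.30 and 3.83 after AOM, highest for WT after AOM. *Cd68*, of macrophages, had levels of 0.436 and 0.775 with vehicle and of 2.37 and 0.898 after AOM. The part of these cell types in the values of *Krt7* and *Krt23* was not tested.

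For the 3 keratins whose level spanned over 2-fold with the gene's brightest probe, the nearest profiles were found among 18082 genes detected on all 4 arrays, as the Euclidean distance between log2 levels over the 4 arrays after centering each gene. Nearest to *Krt23* was *Ptgs2* (cyclooxygenase-2), at a distance of 0.22, with levels of 0.0954 and 0.0853 with vehicle and of 1.33 and 0.116 after AOM. The next were *Stx11* at 0.31 and *Gm7969* at 0.35. Nearest to *Krt20* was *Ppard*, a nuclear receptor for fatty acids, at 0.047, with levels of 6.74 and 7.60 with vehicle and of 1.61 and 6.11 after AOM, followed by *Klhl13* at 0.072 and *Cdh2* at 0.10. Nearest to *Krt7* were *Tnfrsf4* at 0.068, *Tgfb1* at 0.080 and *Tpbg* at 0.084. With 4 arrays, a close profile among 18082 genes describes these arrays only.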

How the data were processed

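Total RNA of 4 pools was labeled with Cy3 and hybridized to 1 Agilent slide, 1 array per pool. The authors deposited Feature Extraction 11.5.1.1 output, from which the processed intensity of each spot was used (background-subtracted and detrended, with no scaling from array to array), and a table that is the ratio of this intensity to the array's 75th percentile. Groups were taken from the deposited labels.

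Here, control spots were left out, leaving 43020 spots of 39429 probes. Outlier spots, between 104 and 139 per array, were then left out of the levels. Repeated spots were averaged on the log2 scale. Between 64.8% and 69.4% of spots were well above background, and 0 were saturated. The 75th percentile of each array was subtracted. A gene was its brightest probe over the 4 arrays, and every probe of the keratins is given. Where 1 side of a ratio was dim, the dimmest detected signal of that array (or the probe's own signal, if higher) stood in for it and the ratio is a bound. With 1 array per group, precision is limited by the number of arrays and no test was run. Ratios were checked on simulated data.

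The keratins and the 12 comparison lists were chosen with earlier results of these data known. Named besides the keratins were *Pla2g3*, genes among the 3 brightest of each list and the 3 nearest profiles. Outside that rule, *Krt5*, *Krt14*, *Krt15*, *S100a8*, *S100a9*, *Cdh1* and *Grhl2* were named after their values were seen. Alternatives were quantile normalization, median scaling, no scaling, normexp (offset 50) before quantile normalization (limma 3.58.1, R 4.3.3), a floor after scaling, no filter or only genes detected on both arrays, the mean or dimmest probe, the deposited table, and limits of 1.5-fold and 4-fold. Python 3.11.15 with pandas 2.3.3, numpy 2.4.6 and matplotlib 3.10.9 was used. Promoters are from RefSeq GRCm38.p6, where 5 of the 6 genes were matched.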

Additional observations from a re-analysis of the deposited data

Results flagged for a closer look

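*Krt7* had a log2 ratio of AOM to vehicle of 1.56 in WT and of -0.44 in the labeled-KO pool, so the pools moved in opposite directions. The difference was not tested, since each group is 1 array, and without scaling between arrays the second value was 0.40, in the same direction as the first.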

How the results depend on the processing

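The ratios of *Krt7*, *Krt20* and *Krt23* that passed 2-fold kept their direction and stayed past it under quantile, median and no scaling, normexp, a floor, both filters on dim probes, the mean or dimmest probe and the deposited table. For AOM over vehicle in WT their log2 ratios ranged from 1.53 to 2.58, from -2.08 to -1.03 and from 3.65 to 4.70, and for labeled-KO over WT after AOM from -2.19 to -1.87, from 1.71 to 1.95 and from -4.04 to -3.59. With the dimmest probe per gene, *Krt8* also passed, and 2 keratins were higher between genotypes after AOM and 2 lower for AOM over vehicle in WT. At 1.5-fold, 3 were higher between genotypes after AOM and 2 lower for AOM over vehicle in WT. At 4-fold, 0 were higher and 1 lower between genotypes after AOM, and 1 was higher for AOM over vehicle in WT. Without scaling, 1 keratin (*Krt23*, log2 ratio 1.29) was higher for AOM over vehicle in the labeled-KO pool. The median of all genes in that comparison was itself 0.71 without scaling. The share of all genes past a limit is given above only for 2-fold with the main scaling and the brightest probe. The keratin counts under these other settings therefore have no background to be read against. The median of the mesothelial genes for AOM over vehicle in WT was 0.50 with only genes detected on both arrays, in place of -2.09, since fewer genes had a value. For labeled-KO over WT after AOM it was 0.35, -1.26 without a filter on dim probes and -7.14 with only genes detected on both arrays.

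Signals of the keratins were well above background, and 0 spots were flagged as saturated. The brightest keratin probe, the 3′ probe of *Krt8*, read 231804 on KO AOM, where the highest signal of the array was 347953. How near this probe was to saturation was not tested. No paired analysis was possible because each group is 1 array.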
